A study of Mus musculus with 55 samples.

Results

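Regions of lung PRM tumours that carry H3K4me1 were set against those that carry H3K4me3, from 4 peak libraries of the 55 samples of the series. PRM names mouse lung organoids that carry guides against Trp53 and Rb1 (U6-sgTrp53 and U6-sgRb1 plasmids with an mCherry-P2A-puro cassette) and overexpress Myc (MSCV-Myc-IRES-Luc2), and that formed tumours after injection into the left lung lobe of recipient mice. H3K4me1 was profiled in 2 libraries (Abcam ab8895) and H3K4me3 in 2 (Abcam ab8580) by CUT&Tag, in which an antibody directs a transposase to cut and tag DNA at the marked nucleosomes. No group here carries a guide against Kmt2c unless it is named PRMK. The labels give neither the strain nor the age of the recipients, and they do not say whether replicates came from separate animals or whether both marks were profiled in the same tumours. The protocol text of the H3K4me3 samples names only PRMK organoids for this assay, while their titles and plasmids read PRM, and the titles were followed. Overlapping peaks of the 4 lists were joined, which gave 44787 union regions. Such a region had a mark when both of its libraries had a peak there over at least 1 bp, and lacked it when neither did.

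H3K4me1 and H3K4me3 are methylation states of lysine 4 of histone H3. H3K4me3 is deposited mainly by the SETD1 and KMT2A/B complexes at active promoters and CpG islands, while H3K4me1 is deposited largely by KMT2C and KMT2D at enhancers and at the flanks of promoters. A high ratio of H3K4me1 to H3K4me3 is a common working definition of an enhancer. Small cell lung cancer, the tumour type these organoids model, is built from cells with a neuroendocrine programme.

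The promoters below are shown because the classes differed in CpG content. In each class they are those of the first 2 regions, by signal, that contain a whole 300-base RefSeq promoter (250 bases before to 50 after the start, GRCm38.p6) of a start of that class. Sequences run 5′ to 3′ along the gene, with each CpG dinucleotide in capitals. Pde2a (a phosphodiesterase, chr7:101455812-101456111, plus strand) and Mad1l1 (a spindle checkpoint protein, chr5:140174869-140175168, minus strand) lay under H3K4me1 alone at these starts, and other placed starts of both genes had other patterns. Sin3a (a corepressor scaffold, chr9:57071790-57072089, plus strand) and Cdkn2c (an inhibitor of the kinases CDK4 and CDK6, chr4:109666707-109667006, minus strand) lay under H3K4me3 alone. Prox1 (a homeobox factor of neuroendocrine cells, chr1:190169466-190169765, minus strand) and the predicted gene Gm20346 (chr9:62344598-62344897, minus strand) lay under both marks.
Pde2a: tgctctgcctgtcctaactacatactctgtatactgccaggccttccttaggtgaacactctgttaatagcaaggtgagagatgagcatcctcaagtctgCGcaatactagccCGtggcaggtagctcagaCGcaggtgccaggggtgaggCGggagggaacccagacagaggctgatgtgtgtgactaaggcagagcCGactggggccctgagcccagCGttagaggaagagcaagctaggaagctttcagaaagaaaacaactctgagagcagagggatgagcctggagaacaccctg
Mad1l1: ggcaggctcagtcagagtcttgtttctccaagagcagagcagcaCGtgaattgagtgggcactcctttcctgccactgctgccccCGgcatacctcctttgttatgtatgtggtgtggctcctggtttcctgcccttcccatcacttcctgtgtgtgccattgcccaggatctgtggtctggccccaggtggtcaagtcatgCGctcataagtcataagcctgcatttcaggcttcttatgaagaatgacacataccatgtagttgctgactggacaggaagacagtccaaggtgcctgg
Sin3a: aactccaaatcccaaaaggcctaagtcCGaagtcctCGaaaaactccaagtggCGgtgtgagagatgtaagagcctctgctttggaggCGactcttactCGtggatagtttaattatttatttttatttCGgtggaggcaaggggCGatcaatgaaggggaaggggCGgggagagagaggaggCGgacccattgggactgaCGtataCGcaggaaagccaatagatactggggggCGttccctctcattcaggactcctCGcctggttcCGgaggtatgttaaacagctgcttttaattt
Cdkn2c: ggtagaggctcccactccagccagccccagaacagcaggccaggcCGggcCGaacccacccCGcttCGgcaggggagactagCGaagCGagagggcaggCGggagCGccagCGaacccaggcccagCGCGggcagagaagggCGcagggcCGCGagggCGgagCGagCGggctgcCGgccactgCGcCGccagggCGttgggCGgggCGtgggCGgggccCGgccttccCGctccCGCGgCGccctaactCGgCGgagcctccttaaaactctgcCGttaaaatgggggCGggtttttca
Prox1: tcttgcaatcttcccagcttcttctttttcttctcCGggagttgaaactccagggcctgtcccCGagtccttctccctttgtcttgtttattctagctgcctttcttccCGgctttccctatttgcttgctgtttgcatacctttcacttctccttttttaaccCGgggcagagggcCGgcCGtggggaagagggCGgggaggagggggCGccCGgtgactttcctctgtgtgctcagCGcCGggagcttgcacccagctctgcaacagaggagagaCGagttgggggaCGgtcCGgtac
Gm20346: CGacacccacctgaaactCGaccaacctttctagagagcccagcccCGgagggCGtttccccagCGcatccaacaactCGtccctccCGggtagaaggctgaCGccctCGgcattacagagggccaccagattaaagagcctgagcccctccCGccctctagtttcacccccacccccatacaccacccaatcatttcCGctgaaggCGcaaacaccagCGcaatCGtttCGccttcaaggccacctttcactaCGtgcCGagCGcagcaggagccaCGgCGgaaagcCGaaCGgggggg
The Pde2a and Mad1l1 promoters held 6 and 3 CpGs. Those of Sin3a and Cdkn2c held 14 and 33, and those of Prox1 and Gm20346 held 14 and 22.

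The marks mostly occupied different parts of the genome. H3K4me1 without H3K4me3 was found on 17892 regions (39.9% of the union), H3K4me3 without H3K4me1 on 9751 (21.8%) and both marks on 3886 (8.68%). The other 13258 regions (29.6%) were mixed, meaning that the libraries of at least one mark disagreed. The largest mixed patterns were a peak in H3K4me1 library 1 alone (3857 regions), in H3K4me3 library 2 alone (3022), and in both H3K4me1 libraries with H3K4me3 library 2 (2092). Of 24336 regions with H3K4me1 in both libraries, 16.0% also had H3K4me3 in both and 73.5% had it in neither. Of 14579 regions with H3K4me3 in both libraries, 26.7% also had H3K4me1 in both and 66.9% had it in neither. Single lists gave the same picture. Of the peaks of H3K4me1 libraries 1 and 2, 83.4% and 93.5% overlapped the other H3K4me1 library, and 17.6% to 24.2% overlapped an H3K4me3 library. Of the peaks of H3K4me3 libraries 1 and 2, 89.5% and 71.6% overlapped the other H3K4me3 library, and 28.8% to 36.5% overlapped an H3K4me1 library. With 2 libraries against 2, an exact permutation test cannot give a two-sided p under 0.333, so no test was made and all shares are descriptions. Without H3K4me3 library 1, 5944 regions had both marks and 24.4% of the H3K4me1 regions also had H3K4me3. With only the peaks above each list's median total signal, 10926 regions had H3K4me1 only, 6354 H3K4me3 only and 1323 both.

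The deposited lists held 30398 and 27745 peaks for H3K4me1 and 16785 and 20969 for H3K4me3 outside the mitochondrial genome. They covered 124.7 and 111.4 Mb with H3K4me1 and 60.6 and 68.2 Mb with H3K4me3. Counted in bases, 80.8 Mb lay under both H3K4me1 libraries and neither H3K4me3 library, 36.9 Mb under the reverse pattern, and 8.68 Mb under all 4. Over autosomes, the number of H3K4me1-only regions per H3K4me3-only region ran from 0.991 to 2.59 (median 1.93), with the lowest value on chromosome 8 and the highest on chromosome 16. The sequencing depth is unknown, so a missing peak is the absence of a call in the authors' stringent list and not of the mark.

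**Figure D1:**
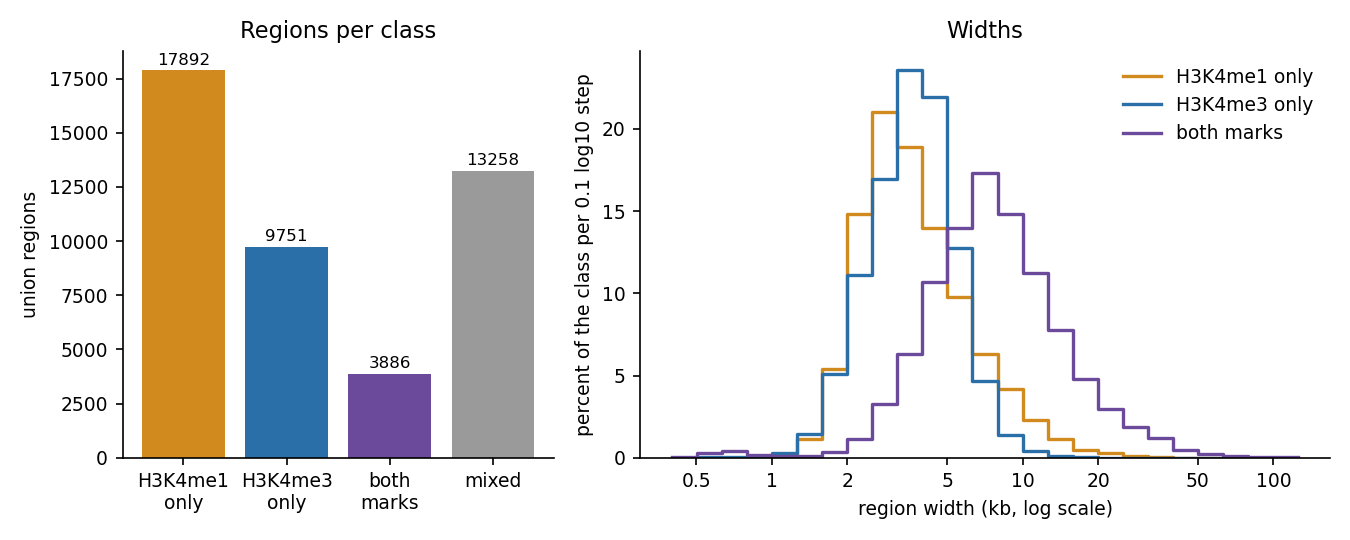
Left, union regions per class; right, width of the regions of each class in kb on a log axis, as the percent of the class per step of 0.1 log10 units. The widths of the 17892 H3K4me1-only and 9751 H3K4me3-only regions overlap around medians of 3435 and 3686 bp, and the 3886 regions with both marks lie further right, around 7484 bp.

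Regions with both marks were wider than regions with a single mark, and the order of the exclusive classes depended on the peaks kept. The median width was 3435 bp for H3K4me1 only (quartiles 2618 and 4978), 3686 bp for H3K4me3 only (2796 and 4686) and 7484 bp for both marks (5193 and 11110). With only the peaks above each list's median total signal, the medians were 5180.5 bp for H3K4me1 only and 4585.5 bp for H3K4me3 only, and without H3K4me3 library 1 they were 3451 and 2816 bp. The upper tails of the exclusive classes differed, in that 4.35% of H3K4me1-only regions (779) and 0.605% of H3K4me3-only regions (59) were wider than 10 kb, against 30.8% of those with both (1198). A region with both marks is a union of at least 4 peaks, so part of its width follows from the rule. Single peaks had medians of 2974 and 2944 bp in the H3K4me1 libraries and 3233 and 2770 bp in the H3K4me3 libraries. The widest peak was 110470 and 110157 bp in the H3K4me1 libraries and 39386 and 38411 bp in the H3K4me3 libraries.

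SEACR reports the total signal of a peak, which is the pileup summed over its bases, and the highest pileup within it. The median highest pileup was 28 in both H3K4me1 libraries, and 186 and 113 in H3K4me3 libraries 1 and 2. These values are whole numbers with no stated scaling to depth, so signal was compared by its percentile rank among the peaks of its own library. H3K4me1 peaks ranked higher where H3K4me3 was also present: the median percentile of total signal was 66.5 and 63.0 on regions with both marks, against 54.1 and 49.1 on H3K4me1-only regions. By highest pileup it was 61.3 and 55.9, against 55.4 and 49.4. H3K4me1 peaks were also wider on regions with both marks, with medians of 4074.5 and 3766 bp against 3059.5 and 2858 bp. Total signal is a sum over bases, and the part of width in its rank was not tested. H3K4me3 peaks showed no such order. Their median percentile of total signal was 54.6 and 58.3 on regions with both marks, against 54.1 and 63.6 on H3K4me3-only regions. The highest pileup of H3K4me3 ranked lower on regions with both marks (48.6 and 55.2) than on H3K4me3-only regions (56.7 and 65.5). Peaks found in 1 library alone ranked low, with medians of 12.8 and 9.67 in the H3K4me1 libraries and 14.0 and 18.6 in the H3K4me3 libraries.

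Position separated the classes. Starts of protein-coding genes were taken from RefSeq promoters, which place 21262 starts of 17491 genes. Starts of 4392 further genes, among them all 510 on chromosome 18, were not placed, and chromosome 18 was left out of shares by position. Of the H3K4me1-only regions, 2.09% (360 of 17190) lay within 1 kb of a placed start. Of the H3K4me3-only regions 67.7% did (6405 of 9459), and of those with both marks 56.9% did (2147 of 3770), against 24.2% of all regions. A further 1.37%, 12.3% and 12.1% of the classes, in that order, lay within 1 kb of an end of a gene with no placed start. H3K4me1-only regions lay in gene bodies in 57.4% of cases and outside protein-coding genes in 39.1%, against 38.9% and 31.6% of all regions. H3K4me3-only regions did so in 7.89% and 12.1%, and regions with both marks in 17.6% and 13.3%. The median distance to the nearest placed start was 63.5 kb for H3K4me1-only regions (quartiles 22.7 and 153.1 kb) and 0 kb for both other classes. With only the peaks above each list's median total signal, 4.28% of H3K4me1-only regions lay within 1 kb of a placed start.

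H3K4me1-only regions lay nearer to each other than to H3K4me3-only regions. The median distance from an H3K4me1-only region was 11.2 kb to the next of its class, against 114.2 kb to the nearest H3K4me3-only region and 144.9 kb to the nearest region with both. Within 5 kb, 32.7% had another H3K4me1-only region, against 2.56% with an H3K4me3-only region. The H3K4me1-only class is also the largest, which by itself shortens the distances within it. An H3K4me1 peak that touches an H3K4me3 peak joins a region with both marks or a mixed one. The rule thus keeps the exclusive classes apart, while neighbouring H3K4me1 peaks that do not touch stay separate regions. The 1142 H3K4me3-only regions outside protein-coding genes were narrower than the 6405 at placed starts, with median widths of 2450 against 3951 bp, and had lower pileups (medians of the highest pileup 83 and 69 in libraries 1 and 2, against 250 and 245). H3K4me1-only regions differed less by place: those outside genes had a median width of 3231 bp, against 4055 bp at the 360 near placed starts, and medians of the highest pileup of 29 and 27 against 32 and 29.5.

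Around gene starts with both marks, H3K4me3 covered the start itself and H3K4me1 was most common further into the gene. Of the 21262 placed starts, a window of 1 kb on each side had H3K4me1 only at 448 (2.11%), H3K4me3 only at 9182 (43.2%), both marks at 1709 (8.04%), a mixed pattern at 2312 (10.9%) and neither at 7611 (35.8%). At the 1709 starts with both, H3K4me1 peaks covered 53.7% and 44.8% of the start positions themselves, and most starts at 1300 and 1100 bp into the gene, where 77.8% and 75.1% were covered. These maxima lie just past the 1 kb window that chose the starts, and the part of the window in their position was not tested. H3K4me3 covered 97.6% and 97.4% of the same start positions. At 5 kb into the gene, H3K4me1 covered 45.8% and 42.4% and H3K4me3 15.5% and 19.6%. Upstream H3K4me1 was less common and close to its level at the start, covering 55.2% and 52.4% of starts at 1 kb before the start, against 77.5% and 75.01% at 1 kb after it. At starts with H3K4me1 only, H3K4me1 covered 83.0% and 79.2% of the start positions, which the symmetric window that chose these starts favours. At starts with H3K4me3 only, H3K4me1 appeared outside the window, on 7.17% and 6.03% of starts at 5 kb into the gene and on 3.27% and 2.71% at 5 kb before it.

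**Figure D2:**
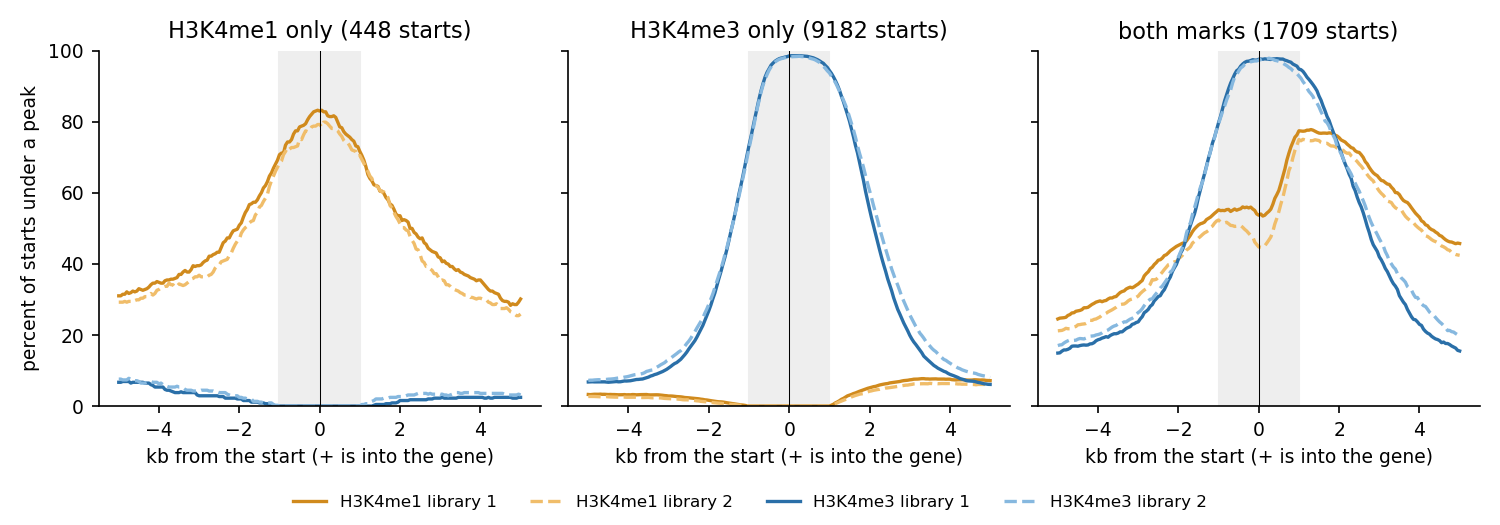
Percent of placed gene starts whose position at a given distance (kb, positive into the gene) lay under a peak, in 1 panel per class, with a line for each of the 4 libraries; the grey band is the 1 kb window that set the class. In the panel of both marks, H3K4me3 covers 97.6% and 97.4% of starts at 0 kb, and H3K4me1 covers 53.7% and 44.8%, reaching 77.8% and 75.1% beyond 1 kb into the gene.

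Inside regions with both marks, H3K4me1 and H3K4me3 overlapped in part and H3K4me1 mostly reached past H3K4me3 on a single side. Some bases carried all 4 libraries in 3545 of 3886 regions (91.2%). In the median region, 55.6% of the bases with H3K4me3 in both libraries also had H3K4me1 in both, and 47.2% of the bases with H3K4me1 also had H3K4me3. In 3418 regions with a single interval of H3K4me3 shared by both libraries, H3K4me1 reached at least 200 bp beyond it on one side in 2007 (58.7%), on both sides in 722 (21.1%) and on neither in 689 (20.2%).

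Of the 6 H3K4me1-only regions that ranked first by signal, 5 overlapped a gene and none lay at a placed start. Regions were ranked by the lower of their percentiles of total signal in the libraries of their class, and since total signal is a sum over bases, a high rank favours wide regions. Of the whole class, 57.4% lay in gene bodies. The first was chr9:69292444-69337856, 45413 bp wide, inside Rora, which encodes a nuclear receptor. Its highest pileup was 176 and 154 in the H3K4me1 libraries. It was also the widest of the class, and its nearest placed start was that of Ice2, at 60.1 kb. The second was chr16:18138612-18174019, over Rtn4r, a receptor for axon growth inhibitors, with pileups of 254 and 196. The third, chr11:88374994-88417318, 42325 bp wide, lay inside Msi2, which encodes an RNA-binding protein, with pileups of 226 and 165. The next 3 lay in Prkcb (protein kinase C beta, pileups 200 and 146), outside genes 21.4 kb from the Tpra1 start (212 and 169), and in Vav2 (159 and 119). Among the 6 widest were also blocks in Prex1 (a Rac exchange factor, 40017 bp), Zfyve28 (36291 bp) and Hrh1 (histamine receptor, 36282 bp). All 9 regions lay away from placed starts, the nearest at 3.055 kb (Hrh1).

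Of the 6 H3K4me3-only regions that ranked first by signal, 4 lay over a placed gene start, against 67.7% of the class within 1 kb of one. The first was chr9:57069688-57079150 over Sin3a, with highest pileups of 438 and 480 in the H3K4me3 libraries. It was followed by chr4:109653171-109669827 over Cdkn2c (558 and 367), chr11:69116864-69127918 over Hes7, a repressor of the segmentation clock, and its neighbour Aloxe3 (316 and 407), chr5:23429982-23438875 over Kmt2e (478 and 545), chr14:25454670-25462316 over Zmiz1 (358 and 443) and chr8:84655925-84666590 over the immediate early gene Ier2 (544 and 355). Kmt2e and Ier2 have no placed start, so these regions count as distant from one (115.6 and 34.9 kb). The widest was chr2:116039122-116077410 over Meis2, a homeobox factor. A single peak of 38289 bp spanned it in H3K4me3 library 1, with a pileup of 507, while the widest peak there in library 2 was 7621 bp, with a pileup of 308. Meis2 RNA was at 0.196, 0.301 and 2.84 TPM in RNA libraries 4, 5 and 6. The other wide H3K4me3-only regions were over Nefl (20300 bp), Abt1 (19859 bp), Slc38a1 (19144 bp) and the Hoxd8 to Hoxd10 genes (17439 bp), and 68.5 kb from the Bcl11b start (17900 bp). Over Hoxd8 to Hoxd10 the H3K4me3 libraries stood apart, with a highest pileup of 31 in library 1 and 425 in library 2. That region had a peak in 4 of the 14 CUT&Tag libraries used, and the other named H3K4me3-only regions in 8 to 10. These 14 include the 4 libraries that set the classes. A peak in both H3K4me3 libraries and none in the H3K4me1 libraries thus follows from the rule.

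The 6 regions with both marks and the highest rank were of 2 kinds. Long blocks formed 3 of them, with peaks in all 14 CUT&Tag libraries used. These were chr11:120222225-120273087 over Bahcc1 (50863 bp), with pileups of 178 and 159 in the H3K4me1 libraries and 485 and 571 in the H3K4me3 libraries, chr11:24073375-24132577 over Bcl11a (59203 bp), a zinc finger repressor, with 193 and 153 and with 301 and 328, and chr15:85651458-85710510, 25.3 kb from the Ppara start (59053 bp), with 148 and 133 and with 331 and 443. The other 3 were the top ranks by signal and had pileups far above the rest of the list. At chr2:98666237-98667333, 1097 bp wide and 2348 kb from the nearest placed start, pileups were 7890 and 7863 in the H3K4me1 libraries and 3475 and 5882 in the H3K4me3 libraries. At chr1:24611447-24616188 they were 2451 and 2269 and 3931 and 5671, and at chr11:3121055-3149043 over Sfi1 847 and 766 and 2153 and 2077. These 3 regions had peaks in 12 of the 14 CUT&Tag libraries, and whether repeated sequence contributes to them was not tested. No regions were filtered out on that ground, and the IgG library of lung PRM was not read here. For all 6 regions, the peaks in the 4 libraries that set the class follow from the rule.

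The classes differed in measurements that did not define them. H3K4me2, the intermediate state, followed H3K4me3. Libraries 1 and 2 of lung PRM H3K4me2 had a peak on 11.96% and 16.0% of H3K4me1-only regions, on 89.5% and 94.7% of H3K4me3-only regions and on 96.7% and 98.7% of regions with both marks, against 41.9% and 47.9% of all regions. Both H3K4me2 libraries had a peak on 5.91%, 87.0% and 95.9% of the classes, in that order. The H3K4me1-only regions with H3K4me2 in both libraries (1058) were wider, with a median of 5198 bp, and ranked higher in the H3K4me1 libraries (median percentiles 79.99 and 77.6) than the 16834 others (3371 bp, 52.9 and 48.0). The order of the classes was the same away from gene starts, where 5.83% of H3K4me1-only, 76.9% of H3K4me3-only and 93.2% of regions with both had H3K4me2 in both libraries. Without H3K4me3 library 2, the share among H3K4me1-only regions was 11.4%, and with a peak in either H3K4me2 library it was 22.1%.

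KMT2C, the H3K4 methyltransferase the study turns on, was called most often where both marks were present. KMT2C libraries 1 and 2 of lung PRM had a peak on 9.47% and 16.7% of H3K4me1-only regions, 24.7% and 37.3% of H3K4me3-only regions and 52.8% and 65.6% of regions with both, against 17.6% and 26.3% of all regions. Away from placed starts the share with KMT2C in both libraries was 8.57%, 14.7% and 45.2% in the same order. The 1535 H3K4me1-only regions with KMT2C in both libraries had a median width of 5318 bp, against 3348 bp in the 16357 others. KMT2C lists held 9949 and 16681 peaks. With only the peaks above each list's median total signal, 21.2% of H3K4me1-only regions had KMT2C in both libraries, against 8.58% with all peaks, and with equal numbers of peaks 14.8% had it. Wider regions have more room for a peak of any list, and the part of width in these shares was not tested.

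Open chromatin gave the same order of classes in both libraries, but the libraries differed in the number of peaks. ATAC library 1, with 64596 peaks, had a peak on 39.8% of H3K4me1-only regions, 56.5% of H3K4me3-only regions and 81.7% of regions with both. Library 2, with 19834 peaks, had a peak on 9.501%, 50.0% and 67.7%. Over all regions the shares were 44.4% and 24.6%. The H3K4me1-only share thus differed more than 4-fold between libraries, while the H3K4me3-only share did not. Both ATAC libraries had a peak on 6.99% of H3K4me1-only regions, and on 17.7% of those formed by the peaks above each list's median total signal.

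**Figure D3:**
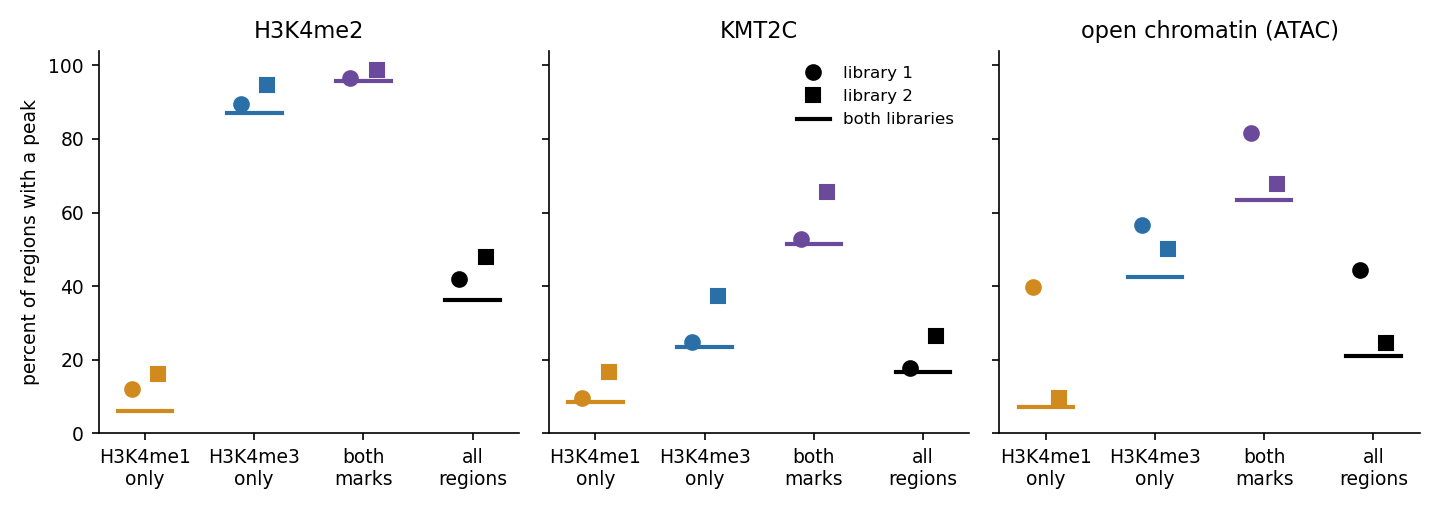
Percent of the regions of each class, and of all regions, that had a peak of H3K4me2, KMT2C or open chromatin in lung PRM; circles are library 1, squares library 2 and bars the share with a peak in both. H3K4me2 lies at 11.96% and 16.0% on H3K4me1-only regions and at 89.5% and 94.7% on H3K4me3-only regions, and the ATAC libraries are furthest apart on H3K4me1-only regions.

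The same marks in other tumours of the series were read on the lung PRM classes. The H3K4me1-only regions had an H3K4me1 peak in lung PRMK libraries (PRM with an added Kmt2c guide) 1 and 2 in 62.1% and 48.8% of cases, and in liver PRM libraries in 86.6% and 97.6%. Over all regions these shares were 50.6% and 38.2% in lung PRMK and 54.2% and 68.2% in liver PRM. Regions with both marks kept H3K4me1 in 90.2% and 77.9% of cases in lung PRMK and in 90.7% and 98.9% in liver PRM. H3K4me3-only regions had an H3K4me3 peak in lung PRMK libraries in 95.8% and 90.2% of cases, and an H3K4me1 peak there in 21.2% and 10.6%. An H3K4me3 peak in lung PRMK was found on 36.0% and 31.4% of all regions. H3K4me1-only regions had an H3K4me3 peak in lung PRMK in 1.59% and 0.453% of cases.

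Genes with H3K4me1 alone at the start were few, and those with an RNA level were weakly transcribed. Peaks within 1 kb of any placed start of a gene were pooled, so a gene has H3K4me1 only when no placed start has an H3K4me3 peak. Genes such as Pde2a, with H3K4me1 alone at some starts but not at others, can thus count with both marks. In this way 281 genes (1.61%) had H3K4me1 only, 7595 (43.4%) H3K4me3 only, 1453 (8.31%) both marks, 1825 (10.4%) a mixed pattern and 6337 (36.2%) neither. Of these classes, 58.4%, 95.3%, 94.1%, 82.1% and 21.7% of the genes, in that order, were among the 15479 genes of the authors' RNA table of lung PRM. Levels per gene length were computed from the counts of its 3 PRM libraries, numbered 4 to 6, and are given as TPM. RNA medians here and below cover only genes with such a level, and the other genes are left out. These were 157, 7233, 1367, 1485 and 1211 genes of the classes, in the same order. The median level was 2.30, 1.21 and 0.496 TPM in libraries 4, 5 and 6 for genes with H3K4me1 only, 22.6, 22.9 and 17.6 TPM with H3K4me3 only, 33.4, 25.6 and 15.8 TPM with both marks, and 1.12, 0.289 and 0.433 TPM with neither. Genes with both marks thus had a higher median than those with H3K4me3 only in libraries 4 and 5 and a lower one in library 6. With a window of 500 bp the order turned, with a median over the libraries of 23.97 TPM for H3K4me3 only and 20.6 TPM for both marks, against 22.6 and 25.6 TPM with 1 kb. The neuroendocrine transcription factors listed below had a median of 303, 129 and 7.20 TPM in the same libraries, and the part of this difference between the libraries was not tested. The quartiles of the class with H3K4me1 only were 0.499 and 6.99 TPM in library 4, and those of the class with H3K4me3 only 8.47 and 54.6 TPM. Genes are not replicates, and these medians carry no test.

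**Figure D4:**
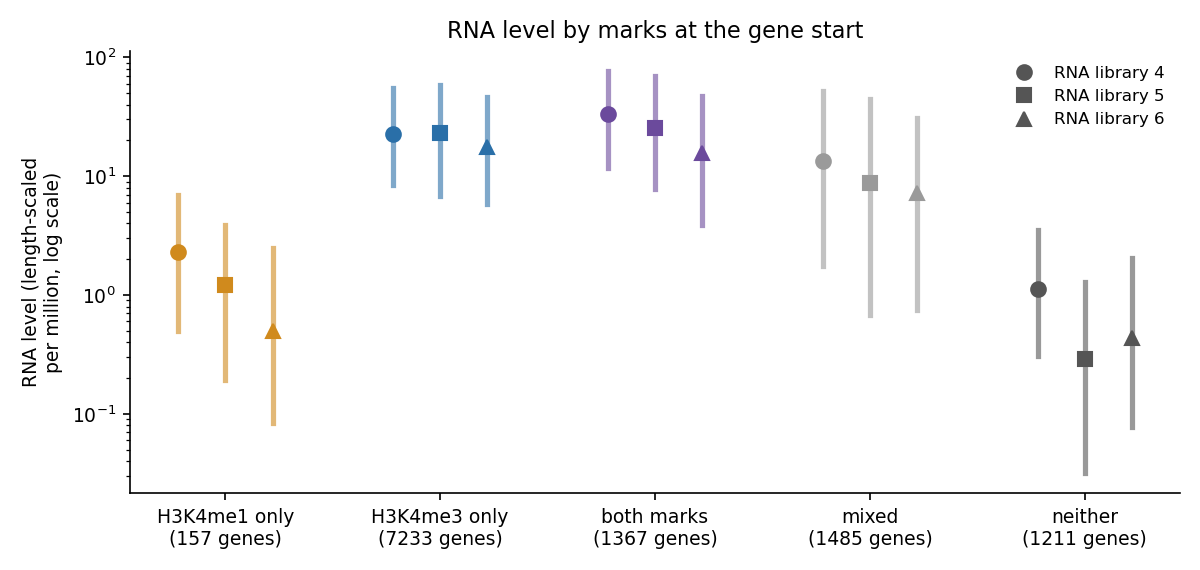
RNA level per gene length (TPM, log axis) of genes by the marks at their start in the 3 lung PRM RNA libraries. Points are medians over the genes of a class that have a level, and bars reach from the lower to the upper quartile. Genes without a level are left out. Genes with H3K4me1 only have medians of 0.496 to 2.30 TPM, far below the 15.8 to 33.4 TPM of both classes with H3K4me3.

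H3K4me1-only regions were spread unevenly over genes. Of the 17491 genes, 13151 had none in the span and 10 kb on each side, 4340 had at least 1 and 750 had 4 or more. The genes with the most were long genes, named here for that count after it was seen. Ntm, a neural adhesion gene of 968.5 kb, had 32, Ptprn2, a phosphatase of secretory granules, had 31 and Sox6, a transcription factor, had 31. Macrod2, Nav2 and Ptprt had 26 each. Ptprn2 RNA was at 73.5, 19.2 and 0.674 TPM and Sox6 RNA at 59.5, 2.79 and 0.103 TPM in libraries 4, 5 and 6. Among genes with H3K4me3 only at the start, those with no H3K4me1-only region had a median RNA level of 22.8, 23.8 and 18.9 TPM, and those with 4 or more had 15.7, 15.1 and 6.69 TPM. Their median spans were 18.9 and 220.4 kb. Within spans of 20 to 60 kb, genes with no such region had 22.6, 24.8 and 18.7 TPM, genes with 1 had 28.4, 28.0 and 22.4 TPM, and the 14 genes with 4 or more had 27.2, 19.5 and 16.7 TPM. The median spans of genes with none and with 4 or more were 32.0 and 44.3 kb in this band, so span was matched only in part.

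Of 10 neuroendocrine subtype factors with a placed start, 4 had H3K4me3 only, 3 both marks, 1 a mixed pattern and 2 neither. Over all genes these shares were 43.4%, 8.31%, 10.4% and 36.2%, so the count with H3K4me3 only is near that of all genes. Prox1 had both, with highest pileups of 204 and 170 for H3K4me1 over 42320 and 42037 bp, and 319 and 322 for H3K4me3 over 18843 and 15571 bp. Foxa2, a forkhead factor of endoderm, had both (30 and 40 for H3K4me1, 272 and 96 for H3K4me3), as had Hes6, a Notch antagonist (53 and 48, and 339 and 356). Nkx2-1, a factor of lung identity, had H3K4me3 only (429 and 413, over 20269 and 14555 bp), as had Foxa1 (347 and 416), Sox2 (327 and 192) and Isl1 (312 and 86). Mycl was mixed, with H3K4me1 in library 1 alone. Neurod1 and Nkx2-2 had neither mark at the start. Neurod1 RNA was at 44.5, 170.0 and 15.02 TPM in RNA libraries 4, 5 and 6. The start of Insm1, a zinc finger factor of neuroendocrine cells, was not placed. Over its span and 1 kb on each side, pileups were 114 and 141 for H3K4me1 and 310 and 259 for H3K4me3.

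Of 11 neuroendocrine secretory and neuronal genes with a placed start, 6 had H3K4me3 only, 3 both marks and 2 were mixed, against 43.4%, 8.31% and 10.4% of all genes. Chga, which encodes chromogranin A of dense core granules, had both, with pileups of 137 and 118 for H3K4me1 over 15741 and 19933 bp and of 315 and 159 for H3K4me3. Ddc, which makes dopamine and serotonin, had both (168 and 136, and 179 and 105), as had Calca, the calcitonin gene (33 and 26, and 115 and 75). Chgb, Syp, Scg2 and Scg3 had H3K4me3 only. Chga RNA was at 1919, 1167 and 3.81 TPM and Chgb RNA at 536, 134 and 2.40 TPM in RNA libraries 4, 5 and 6. Dll3, an inhibitory Notch ligand, was mixed, with H3K4me1 in library 2 alone.

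Genes of the H3K4 machinery and ribosomal protein genes had mainly H3K4me3 alone, the pattern of 43.4% of all genes, while 8.31% of all genes had both marks. Of 11 placed methyltransferase complex genes 9 had H3K4me3 only, among them Kmt2a, Kmt2c, Setd1a and Wdr5, with Kmt2d mixed and Ncoa6 with neither. Kmt2c had pileups of 325 and 362 for H3K4me3. All 5 placed H3K4 demethylase genes (Kdm1a, Kdm1b, Kdm5b and Kdm5c among them) and all 5 placed Meis and Pbx genes (Meis1, Meis2, Meis3 and Pbx2 among them) had H3K4me3 only. Of 14 placed ribosomal protein genes 11 had H3K4me3 only, such as Rpl4, Rpl5, Rpl10a and Rpl13, 2 had both (Rps3 and Rps18) and Rpl11 was mixed. Of 10 placed replication licensing genes 6 had H3K4me3 only (Mcm3, Mcm5, Mcm10 and Pcna among them), 2 both (Mcm6 and Cdt1) and 2 were mixed (Mcm2 and Mcm7). Of 7 genes of DNA methylation, Dnmt1, Dnmt3a and Tet3 had both marks, Dnmt3b, Tet1 and Tet2 had H3K4me3 only, a count near the share of all genes, and Uhrf1 was mixed. The maintenance methyltransferase gene Dnmt1 had pileups of 94 and 83 for H3K4me1 and 427 and 344 for H3K4me3. A list of Trp53, Rb1, Myc, Kmt2c, Dnmt3a and Meis2, of which PRM carries guides against Trp53 and Rb1 and overexpresses Myc, had 4 placed members. Trp53, Kmt2c and Meis2 had H3K4me3 only and Dnmt3a had both. Over the span of Myc, whose start was not placed, H3K4me3 had pileups of 441 and 506 and H3K4me1 had no peak. Rb1, likewise not placed, had 41 and 28 for H3K4me1 and 149 and 152 for H3K4me3.

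Germline, hepatocyte, leukocyte and Hox genes mostly had neither mark, as did 36.2% of all genes. All 10 germline genes, 9 of 10 placed hepatocyte genes (Alb, Apob, Fgb and Fga among them), 5 of 6 leukocyte genes (Ptprc, Cd3e, Lyz2 and Itgam among them), and 11 of 18 Hox genes (Hoxa2, Hoxa3, Hoxa7 and Hoxa9 among them) had neither. The other placed members of these lists were Apoa1 (H3K4me3 only, pileups 35 and 31) in the hepatocyte list, Cd68 (mixed) in the leukocyte list, and in the Hox list Hoxd3, Hoxd8, Hoxd9 and Hoxd10 (H3K4me3 only) and Hoxa5, Hoxd1 and Hoxd4 (mixed). Lyz2, a myeloid gene with neither mark at its start, was at 1374, 4.11 and 190.3 TPM in RNA libraries 4, 5 and 6. Over all genes, 43.4% had H3K4me3 only, 8.31% both marks and 10.4% a mixed pattern. Among 11 placed developmental genes 6 had neither (Pax2, Pax6, Pax7 and Otx2 among them), 3 H3K4me3 only (Pax9, Lhx2 and Eomes) and 2 were mixed. Among 9 placed Notch, Yap and non-neuroendocrine genes 4 had H3K4me3 only (Yap1, Cd44, Ajuba and Epha2), Notch2 had both and 4 were mixed (Notch1, Wwtr1, Vim and Ccn1). The count with H3K4me3 only in this list is near the share of all genes. Among 5 placed endothelial and fibroblast genes Kdr and Pdgfra had H3K4me3 only, Tek was mixed, and Col1a2 and Col3a1 had neither. Of the alveolar and airway genes, Krt8 had both marks, with pileups of 105 and 91 for H3K4me1 and of 344 and 24 for H3K4me3 in libraries 1 and 2, and H3K4me3 of Epcam stood at 316 and 101 and of Krt18 at 263 and 67. Hopx stood at 163 and 181, and the medians over all peaks of these libraries were 186 and 113. Epcam RNA was at 10.7, 11.2 and 678 TPM in RNA libraries 4, 5 and 6. Of the 8 placed alveolar and airway genes, Hopx, Krt18 and Epcam had H3K4me3 only, Krt8 both, Ager a mixed pattern, and Sftpb, Sftpa1 and Krt5 neither. No member with a placed start, in any of the 17 lists, had H3K4me1 only there, a pattern of 1.61% of all genes. Among members with no placed start, the spans of Pax3, Gata4, Scgb1a1, Ttr and C1qa had H3K4me1 only. So had the spans of Pax7, Ahsg, Tat and Lyz2, which had neither mark at their placed starts. The H3K4me1 of Scgb1a1 ranked low in library 2 (percentiles of total signal 70.9 and 5.82). The share of this span pattern over all genes is not given here, so these names carry no comparison.

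The starts with H3K4me1 alone resembled unmarked starts in CpG content. The ratio of observed to expected CpGs in the 300-base promoter had a median of 0.235 at the 448 starts with H3K4me1 only (quartiles 0.138 and 0.355), 0.791 at those with H3K4me3 only (0.630 and 0.928), 0.737 with both marks (0.526 and 0.892) and 0.188 with neither. The ratio was above 0.6 at 6.03%, 78.1%, 68.5% and 6.64% of these starts, in that order, against 47.6% of all starts. The median GC content was 53.3%, 61.7%, 63.3% and 47.0%. The promoters printed above gave ratios of 0.273 (Pde2a), 0.141 (Mad1l1), 0.778 (Sin3a), 0.823 (Cdkn2c), 0.568 (Prox1) and 0.813 (Gm20346).

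**Figure D5:**
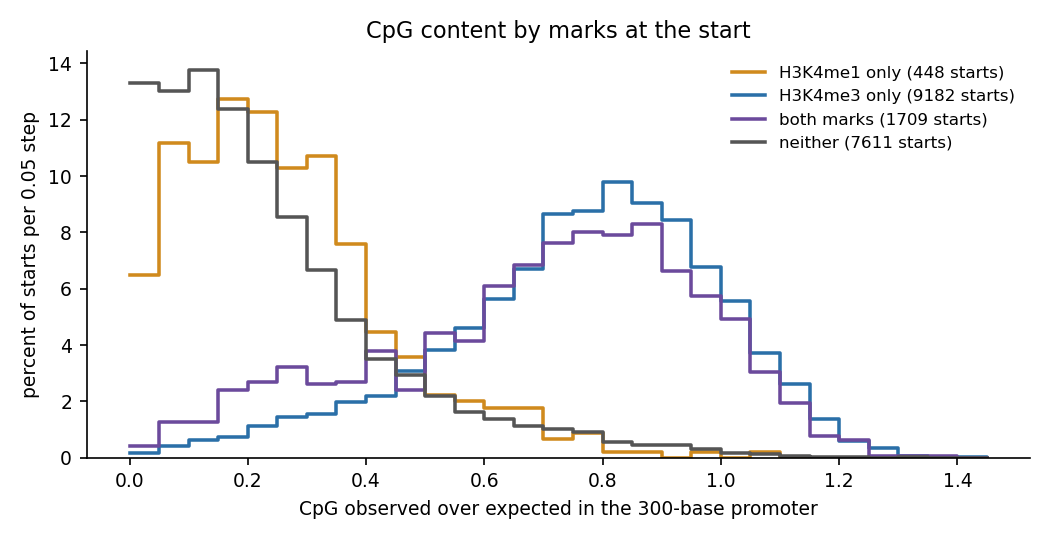
Ratio of observed to expected CpGs in the 300-base promoter of placed starts by the marks within 1 kb, as the percent of starts per step of 0.05. Starts with H3K4me1 only lie with unmarked starts at low ratios (medians 0.235 and 0.188), and starts with H3K4me3 only or both marks lie around 0.791 and 0.737.

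Short motifs were searched by exact letters on both strands of the same promoters. The E-box CAGCTG was found at 30.8% of starts with H3K4me1 only, 13.6% with H3K4me3 only and 16.6% with both marks, against 15.6% of all starts and 16.1% of starts with neither mark. TGCCAA, a half-site of nuclear factor I, was found at 21.4%, 9.75% and 12.9%, against 13.1% of all starts and 16.7% with neither. CAGATG was found at 19.9%, 10.2% and 11.5%, against 14.6% of all starts, and TGANTCA, the AP-1 motif, at 10.0%, 3.82% and 4.74%, against 6.99%. Starts with neither mark held these motifs at 20.7% and 11.3%, at least as often as starts with H3K4me1 only. The order was reversed for motifs that contain CpG, since CCGGAA, an ETS motif, was found at 4.91%, 30.6% and 20.7% (all starts 18.7%), and GGGCGG, the GC box, at 20.8%, 67.2% and 68.5% (all starts 46.2%). TGTTTAC, a forkhead motif, was found at 3.13%, 2.32% and 1.99%, against 3.01%. A match describes the letters of these windows and does not show binding. Of the promoters printed above, Sin3a alone held CAGCTG and CCGGAA, and GGGCGG was found in those of Sin3a, Cdkn2c, Prox1 and Gm20346.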

How the data were processed

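CUT&Tag reads were aligned to mm10 with Bowtie2 and peaks called with SEACR, per the submitters' processing notes. The authors deposited 1 stringent list per library, with the total and highest signal of each peak. Its scaling and the control track are not given in the sources used here. Open chromatin lists carry a score the authors' caller wrote, which was not used. ATAC reads were aligned with Bowtie2 2.2.1 and RNA reads with STAR 2.6.0a, per the same notes. RNA counts per gene were used as deposited, with 18447615, 19550439 and 12013253 counts in PRM libraries 4, 5 and 6, which the titles number otherwise. Their number limits the precision of low levels. No exon lengths were given, so counts were divided by the relative length that deposited counts and TPM of another table imply (15218 of 15479 genes) and scaled to TPM.

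Lists were merged in Python 3.11.15 (numpy 2.4.6, pandas 2.3.3, figures with matplotlib 3.10.9), without mitochondrial peaks. Classes were tested on simulated data and recovered for all 740 planted regions. The planted regions lay far apart and their peaks shared nearly the same edges. The joining of neighbouring or partly overlapping peaks was thus not tested. Overlaps in bases and distances to a start were each right for all 200 simulated intervals. RefSeq symbols, coordinates and promoters are those of GRCm38.p6. No genome was used, so CpG content and motifs cover promoters, not whole regions. Named regions were the 6 highest by rank in each class and the 6 widest of each exclusive class, and up to 4 members per class of each gene list. The members and lists were chosen with earlier results of these data known.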

Additional observations from a re-analysis of the deposited data

How the results depend on the processing

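No paired analysis was possible because no result comes from a test, and the shared replicate numbers name libraries only. Values were compared with the spread between single-library pairings, between the 2 libraries of the other measurement, or between RNA libraries, and counts with a factor of 1.5. Of 211 alternative values, 138 stayed within these limits and 73 moved, and no order of classes carries a test. The limits differ widely in size. For H3K4me1-only regions the limit was 21.4 percentage points for ATAC and 0.0459 for the percent at starts. The tally is therefore no measure of how stable the results are. The values below follow the order H3K4me1 only, H3K4me3 only, both marks. With only the peaks above each list's median total signal, regions were 10926, 6354 and 1323, the percent within 1 kb of a start 4.28, 80.8 and 75.8, median widths 5180.5, 4585.5 and 10679 bp, H3K4me2 23.6%, 98.9% and 99.5%, KMT2C 21.2%, 39.9% and 65.4%, and ATAC 17.7%, 65.5% and 82.3%. H3K4me3 was then on 10.5% of H3K4me1 regions and H3K4me1 on 16.7% of H3K4me3 regions, and 653 genes had both marks. With the 16785 strongest peaks of each library, H3K4me1-only regions were 10886 and regions with both 2523, widths 4652, 3856 and 8926 bp, and H3K4me1 was on 18.3% of H3K4me3 regions. H3K4me1-only regions then lay within 1 kb of a start in 2.47%, with H3K4me2 on 12.4% and KMT2C on 14.8%. Merging peaks within 1 kb gave 2.18% at starts for H3K4me1 only, and widths of 3529 bp for it and 8082.5 bp for both marks. A peak in either library gave H3K4me2 22.1%, 97.2% and 99.5%, KMT2C 17.6%, 38.5% and 66.9%, and ATAC 42.3%, 64.0% and 85.9%. Counted in bases, H3K4me3 only was 19.02% and both marks 4.48% of all. A window of 2500 bp gave 2260 genes with both marks. A window of 500 bp turned the order of median RNA, at 23.97 TPM for H3K4me3 only and 20.6 TPM for both. H3K4me1-only regions were narrower than H3K4me3-only regions with all peaks and wider with the strongest peaks of each list and without either H3K4me3 library. Without division by length, median RNA was 34.3 CPM for H3K4me3 only and 38.4 CPM for both. Leaving out each library in turn, regions with both marks ran from 4059 to 5944. The percent at starts ran from 1.92 to 2.51, from 54.9 to 67.6 and from 38.6 to 57.7, and widths from 2759 to 3527, from 2816 to 3723 and from 6391 to 6832.5 bp. H3K4me2 ran from 5.05% to 11.4%, from 69.7% to 87.5% and from 82.0% to 95.9%, and ATAC from 32.9% to 43.4% for H3K4me3 only and from 51.8% to 62.7% for both. H3K4me3 was on 14.9% to 24.4% of H3K4me1 regions and H3K4me1 on 26.2% to 31.4% of H3K4me3 regions. The cause of these moves was not tested. In each setting H3K4me1-only regions were the rarest at starts and had the lowest share of H3K4me2. Sequence content at region centres was not run, since no genome was used. The depth of the peak libraries is unknown, which limits what a missing peak means.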
